A study of Saccharomyces cerevisiae with 3 samples.

Results

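The genes examined were the 7 subunits of the yeast Arp2/3 complex (ARP2, ARP3, ARC15, ARC18, ARC19, ARC35 and ARC40) together with actin (ACT1), profilin (PFY1) and cofilin (COF1). These 10 genes were taken by name from the platform annotation, which named 5325 genes in all, and each was represented by 2 probes. The study asked which strains of a budding yeast (Saccharomyces cerevisiae) variomics pool resist a drug, with 1 array each for cycloheximide, rapamycin and tunicamycin. A variomics strain collection holds, for each gene, cells with different mutant copies of it, and the cells of a gene can be counted together by their DNA tags. On every array the Cy5 channel held genomic DNA of the pool after the drug and the Cy3 channel that of the untreated pool, and per the labels both came from the essential-gene pool and from cells that were sporulated and then selected. In the descriptions cycloheximide stands beside 30 ng, rapamycin beside 20 ng and tunicamycin beside 3 "vg", and rapamycin alone beside the word "single" in place of pool. The sources used here do not explain these words or give the strain background and the genes of the pool.

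Arp2/3 binds the side of an existing actin filament and starts a new one as a branch, and in budding yeast it acts mainly in the actin patches where endocytosis takes place. Arp2 and Arp3 resemble actin and form the start of the branch, while the Arc subunits hold them in place and bind the mother filament. Profilin binds actin monomers and feeds them to growing filaments, and cofilin severs old filaments and returns their subunits to the monomer pool. Cycloheximide blocks translation elongation, rapamycin inhibits TOR kinase in a complex with Fpr1, and tunicamycin blocks Alg7, which starts the glycan that is later attached to proteins in the ER.

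Every value below is a log2 ratio of drug-selected over untreated DNA minus the median of its array. A negative value therefore stands for a ratio below that of the median spot, not for a measured share of the pool DNA. The direction is not stated in the file and was taken as likely from the dyes in the labels. With the ratio turned, every gene given below as depleted would be enriched after the drug by the same fold, and the counts for depletion and enrichment would change places. Measured probes of a gene were averaged, and the SD given is that between the probes of the gene on 1 array, not between replicates. The spread unit of an array, the scaled median absolute deviation of its gene values, was 0.924 for cycloheximide, 1.06 for rapamycin and 0.914 for tunicamycin. A gene passed the depletion rule when at least 2 probes were measured, its value lay 3 or more units below the median (2.77, 3.17 and 2.74 on the log2 scale for the same drugs) and each probe lay 2 or more units below it. There was 1 array per drug and no replicate, so no difference was tested and no p-value is given.

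Tags of 4 of the 7 Arp2/3 subunits (ARP2, ARP3, ARC19 and ARC40) and of cofilin passed the depletion rule on at least 1 array. The share of all genes that passed on at least 1 array was not computed, so this count has no share beside it. ARC15, ARC18 and ARC35 passed on no array, nor did profilin or actin, which had both probes measured on 1 array each. Under cycloheximide 4 of the 7 members with at least 2 measured probes passed the depletion rule (ARP2, ARP3, ARC40 and COF1), where 15.2% of all genes with at least 2 measured probes passed it. Under rapamycin 2 of 5 passed (ARP2 and ARC40), against 6.45% of all such genes. Under tunicamycin 5 of 8 passed (ARP2, ARP3, ARC19, ARC40 and COF1), against 13.6% of all such genes. On each array 0 members passed the matching rule for enrichment, against 0.0485%, 0.0747% and 0.12% of all such genes in the same order of drugs. The share over all genes is not limited to the essential pool, whose genes are not given, so it is not the share among strains in the pool.

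Not every spot of the group could be read. Of its 60 spots on the 3 arrays, 45 were measured, 11 were empty and 4 held the value 16.61, the log2 of 100000, which stood far above all other values and was left out as a code. Among the Arp2/3 subunits 36 of 42 spots were measured, and among actin, profilin and cofilin 9 of 18. Of the 20 spots of the group on each array, 1 was empty under cycloheximide, 7 under rapamycin and 3 under tunicamycin, against 12.1%, 16.4% and 12.3% of the spots of all genes with 2 probes. Coded spots were 3 under cycloheximide, 0 under rapamycin and 1 under tunicamycin, against 2.93%, 0.732% and 1.72%. The plot of single spots shows these gaps beside the measured values.

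**Figure D1:**
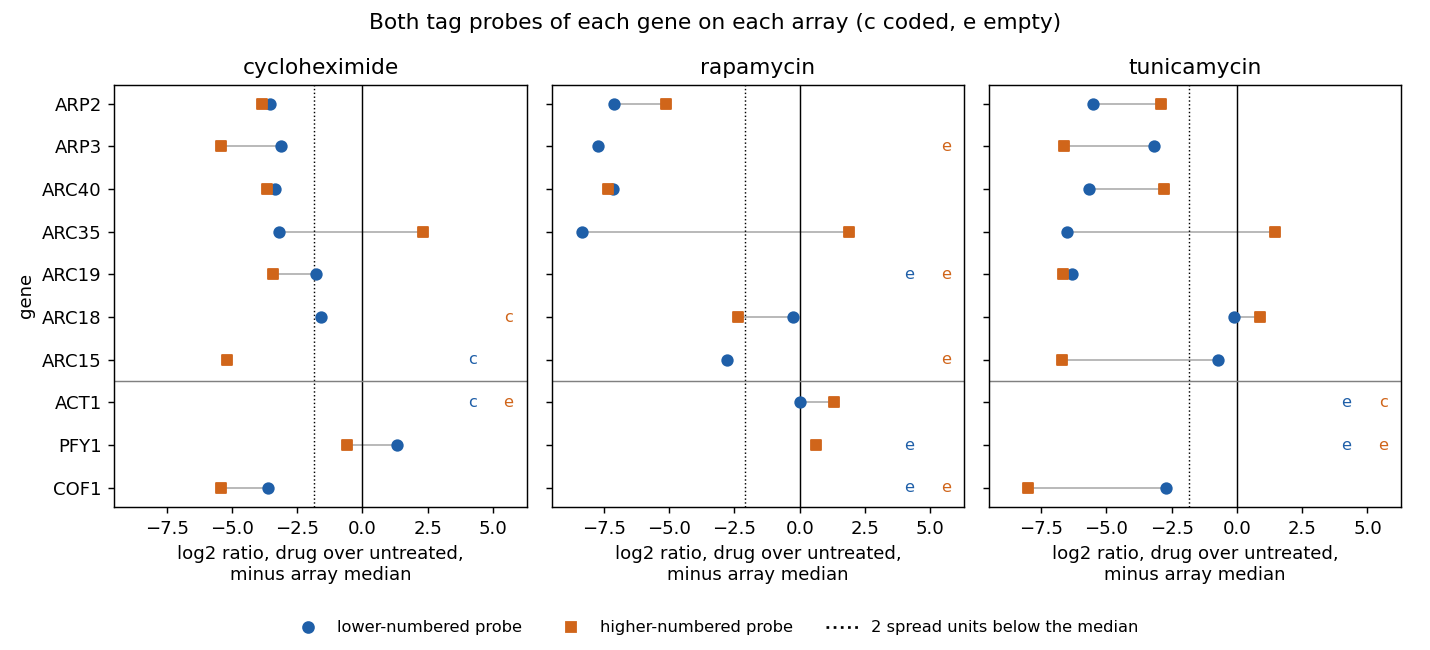
Value of each probe (log2 ratio of drug-selected over untreated DNA minus the array median) for the 10 genes on the 3 arrays, Arp2/3 subunits above the line and actin, profilin and cofilin below it. Circles are lower-numbered and squares higher-numbered probes, the letters c and e stand in the colour of the probe for a coded or an empty spot, and ARC35 has 1 probe on each side of 0 in all panels.

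ARP2 (YDL029W), which encodes the actin-related protein that gives the complex part of its name, had tags far below the median on each array. Its probes stood at -3.53 and -3.86 under cycloheximide, -7.11 and -5.14 under rapamycin, and -5.51 and -2.90 under tunicamycin. Both probes were more than 2 units below the median on all arrays. The gene values were -3.70 ± 0.23 (SD, n = 2 probes), -6.12 ± 1.39 and -4.20 ± 1.85 for cycloheximide, rapamycin and tunicamycin, or 13.0-fold, 69.6-fold and 18.4-fold lower than the array median.

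ARP3 (YJR065C), the partner of Arp2 at the start of the branch, was low wherever it was measured. Its probes stood at -3.11 and -5.40 under cycloheximide and at -3.18 and -6.61 under tunicamycin, with the higher-numbered probe the lower of the pair on both arrays. The gene values were -4.26 ± 1.63 and -4.89 ± 2.43 (n = 2 each), and both passed the depletion rule. Under rapamycin the higher-numbered spot was empty and the other stood at -7.73, which could not pass a rule that needs 2 probes.

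ARC40 (YBR234C), the WD-repeat subunit, had the smallest SD between probes of the 4 subunits with both probes measured under rapamycin. The probes stood at -3.35 and -3.67 under cycloheximide, -7.16 and -7.33 under rapamycin, and -5.65 and -2.80 under tunicamycin. Gene values were -3.51 ± 0.22, -7.25 ± 0.11 and -4.22 ± 2.02 (n = 2 each), and ARC40 and ARP2 were the members that passed the depletion rule on all 3 arrays. Among 1662 2-probe genes with both probes measured on every array, 119 (7.16%) passed it on all 3. Only 3 of the 10 genes could enter that count, the third being ARC35. Of 120 2-probe genes that passed under cycloheximide and tunicamycin with both probes measured under rapamycin, 119 passed there as well.

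ARC19 (YKL013C), a subunit of the structural core that contacts the mother filament, was read on 2 arrays. Under cycloheximide its probes stood at -1.77 and -3.42, and its gene value of -2.59 ± 1.17 (n = 2) stood at -2.81 units, just short of the rule. Under tunicamycin they stood at -6.33 and -6.66, and the gene value of -6.49 ± 0.23 was the lowest of the group on that array, 90.0-fold lower than the array median. Under rapamycin both spots were empty.

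ARC35 (YNR035C), the other subunit of the structural core, gave opposite readings with its 2 probes. The lower-numbered probe stood at -3.20, -8.33 and -6.52 under cycloheximide, rapamycin and tunicamycin. The higher-numbered probe stood at 2.32, 1.91 and 1.46 on the same arrays. On every array the higher-numbered spot held a quotient of small whole numbers (10 at most), a kind of value taken up below. The lower-numbered spot did not. The gene values of ARC35, -0.44 ± 3.91, -3.21 ± 7.24 and -2.53 ± 5.64 (n = 2 each), lie between a low spot and a spot above the median and describe neither. A split of this kind, with 1 probe at least 3 units below the median and the other above it, was seen in 2.16%, 3.35% and 3.08% of all 2-probe genes with both probes measured. On all 3 arrays at once it was seen in 6 of 1662 genes, which were ARC35, CCT6, PRE1, STH1, TSC13 and YDR341C. This count and these names were chosen after the values of ARC35 were seen.

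ARC15 (YIL062C), a small subunit at the periphery of the complex, also had uneven probes. Under tunicamycin they stood at -0.71 and -6.68, with a gene value of -3.70 ± 4.22 (n = 2) that did not pass. Under cycloheximide the lower-numbered spot was coded and the other stood at -5.18, the 11th lowest of 5192 gene values on that array. This rank sets 1 higher-numbered probe against values that are mostly means of probes. On that array the higher-numbered probe was the lower one in 93.6% of the 2-probe genes that passed the depletion rule. Those of COF1 and ARP3 both stood at -5.40. Under rapamycin the lower-numbered probe stood at -2.79 and the other spot was empty.

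ARC18 (YLR370C), which binds next to Arp3 and whose deletion is known to leave viable cells, stood closest to the median among the subunits under rapamycin and tunicamycin. Its probes stood at -0.26 and -2.38 under rapamycin and at -0.13 and 0.87 under tunicamycin, and the lower-numbered one at -1.58 under cycloheximide, where the other was coded. Gene values were -1.58 (n = 1), -1.32 ± 1.496 (n = 2) and 0.37 ± 0.71 (n = 2) for cycloheximide, rapamycin and tunicamycin. These stood at percentiles 18.2, 22.6 and 70.7 of all gene values, while ARP2 stood at 7.45, 7.85 and 10.2. The lower-numbered ARC18 spot on every array and the higher-numbered one under tunicamycin held quotients of small whole numbers. No spot of ARP2 did.

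ACT1 (YFL039C), the single conventional actin gene of yeast, was measured on the rapamycin array only. Its probes stood there at 0.00 and 1.32, a gene value of 0.66 ± 0.93 (n = 2) at percentile 83.9. On the cycloheximide and tunicamycin arrays 1 of its spots was empty and the other was coded, so actin could not be set against its regulators there. PFY1 (YOR122C) was near the median as well. Its probes stood at 1.32 and -0.58 under cycloheximide, a gene value of 0.37 ± 1.35 (n = 2), and its only measured probe under rapamycin stood at 0.63. Under tunicamycin both of its spots were empty.

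COF1 (YLL050C) was low where it was measured. Its probes stood at -3.63 and -5.40 under cycloheximide and at -2.72 and -7.98 under tunicamycin. The gene values were -4.51 ± 1.25, 22.8-fold lower and the 58th lowest of the array, and -5.35 ± 3.72, 40.9-fold lower (n = 2 each). Under rapamycin both spots were empty. ARP2, ARP3, ARC40 and COF1 belonged to 510 2-probe genes that passed the depletion rule under cycloheximide and under tunicamycin. Of these 510 genes, 28.6% had no measured probe under rapamycin and 47.8% had 1, against 4.84% and 24.6% of all 4439 2-probe genes.

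Set against each other, the median of the measured Arp2/3 subunits was -3.51 under cycloheximide (7 genes, -5.18 to -0.44), -4.67 under rapamycin (6 genes, -7.73 to -1.32) and -4.20 under tunicamycin (7 genes, -6.49 to 0.37). The subunit median minus PFY1 was -3.88 under cycloheximide and -5.30 under rapamycin, and the subunit median minus ACT1 was -5.33 under rapamycin. The rapamycin median lies midway between ARP2 and ARC35, whose gene value joins 2 unlike probes, and without ARC35 it was -6.12, which is -6.78 minus ACT1 and -6.76 minus PFY1. By gene value, all 6 subunits with a value under rapamycin lay below ACT1 and PFY1, and all 7 under cycloheximide lay below PFY1. The higher-numbered probe of ARC35, at 2.32 under cycloheximide and 1.91 under rapamycin, lay above every measured spot of ACT1 and PFY1 there. Those ARC35 spots held quotients of small whole numbers (10 at most), as did both ACT1 spots under rapamycin and both PFY1 spots under cycloheximide. Such values are taken up below, and the part of low signal in them was not tested. Values of ARP3, ARC15 and PFY1 under rapamycin and of ARC15 and ARC18 under cycloheximide rest on 1 probe. Cofilin could be set beside profilin on the cycloheximide array only, where it had -4.51 and profilin 0.37, and shared no array with actin. The subunit median minus COF1 was 1.002 under cycloheximide and 1.15 under tunicamycin, smaller than the SD between the probes of COF1 on either array. The sign of the tunicamycin value turned with the probe used, since it was -2.79 from lower-numbered and 5.09 from higher-numbered probes alone. The plot against all genes shows the group on each array.

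**Figure D2:**
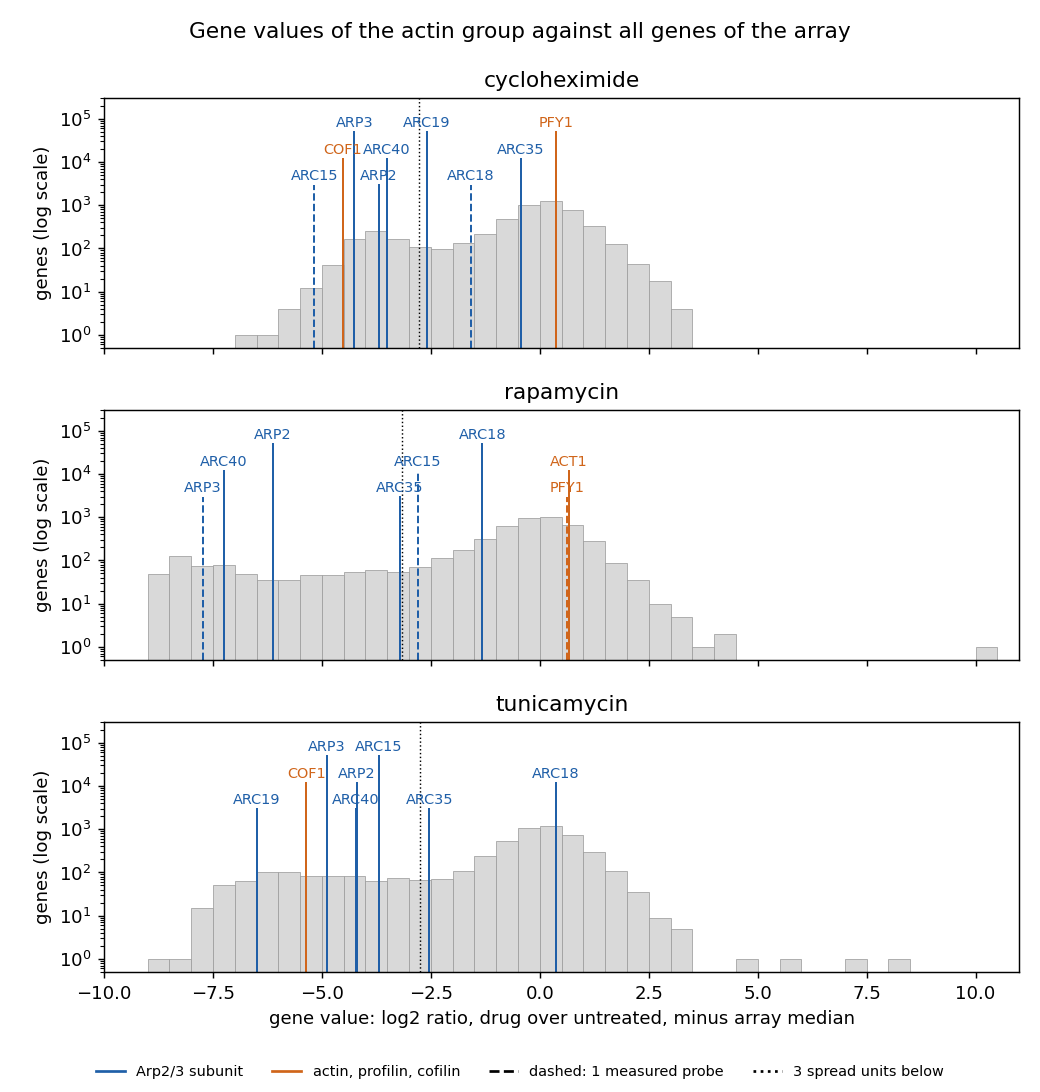
Number of genes by gene value (log2 ratio of drug-selected over untreated DNA minus the array median, bins of 0.5, log scale of counts) on each array, with a labelled line at each gene of the group. The height of a line carries no value, dashed lines rest on 1 measured probe, and ACT1 and PFY1 stand on the main peak while COF1, where measured, stands among the low Arp2/3 subunits.

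The spots behind the gene values were also counted singly, which avoids the need for 2 probes. They are the same values, so this count adds no separate support. Of the measured spots of Arp2/3 subunits, those at or below -2 units were 9 of 12 on the cycloheximide array, 8 of 10 on the rapamycin array and 10 of 14 on the tunicamycin array, against 12.5%, 14.3% and 12.3% of the measured spots of all named genes. Of the spots of actin and profilin 0 of 2 under cycloheximide and 0 of 3 under rapamycin did so. Of the spots of cofilin 2 of 2 did so under cycloheximide and 2 of 2 under tunicamycin. Many spots on these arrays held, within 0.0015, the log2 value of a quotient of small whole numbers (10 at most). Such ratios made up 75.3%, 47.5% and 70.0% of the named spots above -2 units on the cycloheximide, rapamycin and tunicamycin arrays, and 6.19%, 0% and 14.5% of those at or below. Among the 14 measured spots of the group above -2 units, 12 were of this kind, including both of ACT1 under rapamycin, both of PFY1 under cycloheximide and the higher-numbered spot of ARC35 on every array. Among the 31 at or below -2 units, 0 were. Such a quotient cannot lie below -3.32 before the median is subtracted, so part of this contrast follows from the definition, and the 0% of the rapamycin array follows from it wholly. Channel signals were not used here, and the part of low signal in these values was not tested.

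The probes of all 4439 2-probe genes are numbered 10971 apart, so the lower- and higher-numbered probes form 2 separate sets on the array. Among 2-probe genes that passed the depletion rule, the higher-numbered probe was the lower one in 93.6% under cycloheximide, 46.1% under rapamycin and 36.7% under tunicamycin. ARP2, ARP3, ARC40 and COF1 had the higher-numbered probe lower under cycloheximide. Under tunicamycin ARP3, ARC19 and COF1 did, while in ARP2 and ARC40 the lower-numbered probe was the lower one. The annotation does not say which set holds which tag of a strain.

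ARP2, ARP3, ARC35 and ARC40 had their lowest gene value under rapamycin, and ARC15 and ARC18 had theirs under cycloheximide. The range of the array itself was also widest on that side there, with 406 spots below -9 before the median was subtracted, against 0 under cycloheximide and 33 under tunicamycin. ARC35 at -9.66 and ARP3 at -9.05 were among those 406. Because each drug has 1 array and the rapamycin sample is described in other words, drug, array and kind of sample cannot be told apart. Of the 10 genes only ARC18 had gene values on both sides of the median.

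Few other genes of the actin cytoskeleton passed the rule. In 5 lists of actin-related roles with 42 genes on the array, the depletion rule was passed under cycloheximide by 3 of 34 genes with at least 2 measured probes, under rapamycin by 2 of 33 and under tunicamycin by 3 of 37, and 0 passed for enrichment. These are 8.82%, 6.06% and 8.11%, against 15.2%, 6.45% and 13.6% over all genes. The shares are taken under unlike probe numbers, since the rule asks every measured probe to be low. Many list genes have more than 2 probes, such as SAC6 with 10 and SLA2 with 11 measured under cycloheximide. Over all genes, 4439 of 5325 have 2 probes, and such genes were 621 of 625, 254 of 259 and 566 of 569 that passed. The lists are not limited to essential genes, and where genes with no strain in the pool stand on these arrays was not tested.

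Among 13 nucleation promoting factors and other Arp2/3 regulators, PAN1 (YIR006C), an endocytic scaffold that activates Arp2/3, was the only gene to pass, and it did so on all 3 arrays. Its gene values were -3.64 ± 1.33, -7.03 ± 2.01 and -3.53 ± 1.11 (n = 2 each) for cycloheximide, rapamycin and tunicamycin. LAS17 (YOR181W), the yeast WASP protein and a strong activator of the complex, had 0.55 ± 0.36 (n = 2) under cycloheximide, -0.54 ± 2.07 (n = 2) under rapamycin and -0.71 (n = 1) under tunicamycin. BZZ1 had 0.94 ± 0.29 (n = 2) under cycloheximide, MYO5 -0.91 ± 1.47 (n = 8) under rapamycin and VRP1 1.13 ± 1.08 (n = 10) under tunicamycin. The list medians were 0.24, -0.29 and 0.08. In the formin and polarisome list 0 genes passed, with medians of 0.34, -0.07 and 0.14. Its gene furthest from the median was BUD6 under cycloheximide, at 2.14 ± 1.98 (n = 2). In the list of filament binding and turnover proteins 0 passed, with medians of 0.14, -0.12 and 0.58. The fimbrin SAC6 had 0.14 ± 1.07 (n = 10), -0.99 ± 1.37 (n = 12) and 0.79 ± 1.08 (n = 11) for cycloheximide, rapamycin and tunicamycin. The highest values of this list among genes with at least 2 measured probes were ABP140 at 1.18 ± 1.25 (n = 3) under rapamycin and the tropomyosin TPM2 at 1.37 ± 0.71 (n = 2) under tunicamycin.

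In the list of myosins and light chains, MYO1 (YHR023W), the myosin of the cytokinetic ring, passed on all 3 arrays. It had -3.54 ± 1.59, -7.31 ± 0.89 and -7.04 ± 0.69 (n = 2 each) for cycloheximide, rapamycin and tunicamycin. MYO2 (YOR326W), the myosin that carries vesicles and organelles, had -2.54 ± 1.18 under cycloheximide and -3.25 ± 2.02 under tunicamycin (n = 2 each), and neither passed. CMD1 (YBR109C), calmodulin, had -2.11 ± 2.16 under cycloheximide and -3.61 ± 6.34 under tunicamycin (n = 2 each), and neither passed. Under rapamycin MYO2 and CMD1 had 1 measured probe each, at -5.52 and -0.79, so neither gene could pass. The medians of this list of 5 genes on the array, -2.11, -0.79 and -3.25, lay further from 0 than those of the lists before it.

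Actin-related proteins outside Arp2/3 act in chromatin remodelling and in dynactin. Of 7 on the array, ARP7 (YPR034W), a subunit of the SWI/SNF and RSC remodellers, passed under cycloheximide at -3.62 ± 0.93 and under tunicamycin at -5.41 ± 2.75 (n = 2 each). ARP4 and ARP9, which also belong to chromatin complexes, had -4.02 ± 3.63 and -4.08 ± 5.59 (n = 2 each) under tunicamycin and did not pass. Under rapamycin ARP7 and ARP4 had 1 measured probe each, at -7.46 and -8.54, so neither could pass. ARP9 had -1.65 ± 5.07 (n = 3) there and did not pass. The medians of this list were -0.33, -1.49 and -0.67.

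Other cytoskeletal parts gave mixed values too. The median of the CCT chaperonin, which folds actin and tubulin, was -3.18 under cycloheximide, -4.11 under rapamycin and -4.29 under tunicamycin, and 4 of 7, 1 of 4 and 3 of 6 genes passed. These medians lie within 1 spread unit of those of the Arp2/3 subunits. CCT7 passed on each array, at -4.14 ± 1.12, -7.48 ± 0.52 and -5.35 ± 1.39 (n = 2 each). Among the tubulins TUB4 (YLR212C), the gamma-tubulin, passed on each array, at -4.29 ± 0.55, -8.55 ± 0.04 and -5.00 ± 1.31 (n = 2 each). TUB2, the beta-tubulin, passed under rapamycin alone, at -5.09 ± 1.56 (n = 2), and had -2.46 ± 0.28 under cycloheximide and -2.71 ± 1.41 under tunicamycin. Of the septins 1 of 3, 0 of 2 and 1 of 4 passed in the same order of drugs. CDC12 passed under cycloheximide at -3.87 ± 0.72 and under tunicamycin at -4.57 ± 2.49 (n = 2 each). Its only measured probe under rapamycin stood at -8.10, which could not pass. CDC11 had -1.86 (n = 2), -2.18 (n = 1) and -2.60 (n = 2) and did not pass. CDC3 had 2.32 (n = 1), 1.15 (n = 2) and 1.17 (n = 2), and CDC10 0.34 (n = 9), -0.01 (n = 7) and 0.57 (n = 10). A comparison list of genes for making amino acids and adenine, which are not essential in rich medium, had 0 of 35, 0 of 39 and 0 of 33 genes that passed, and medians of 0.08, -0.01 and 0.08.

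**Figure D3:**
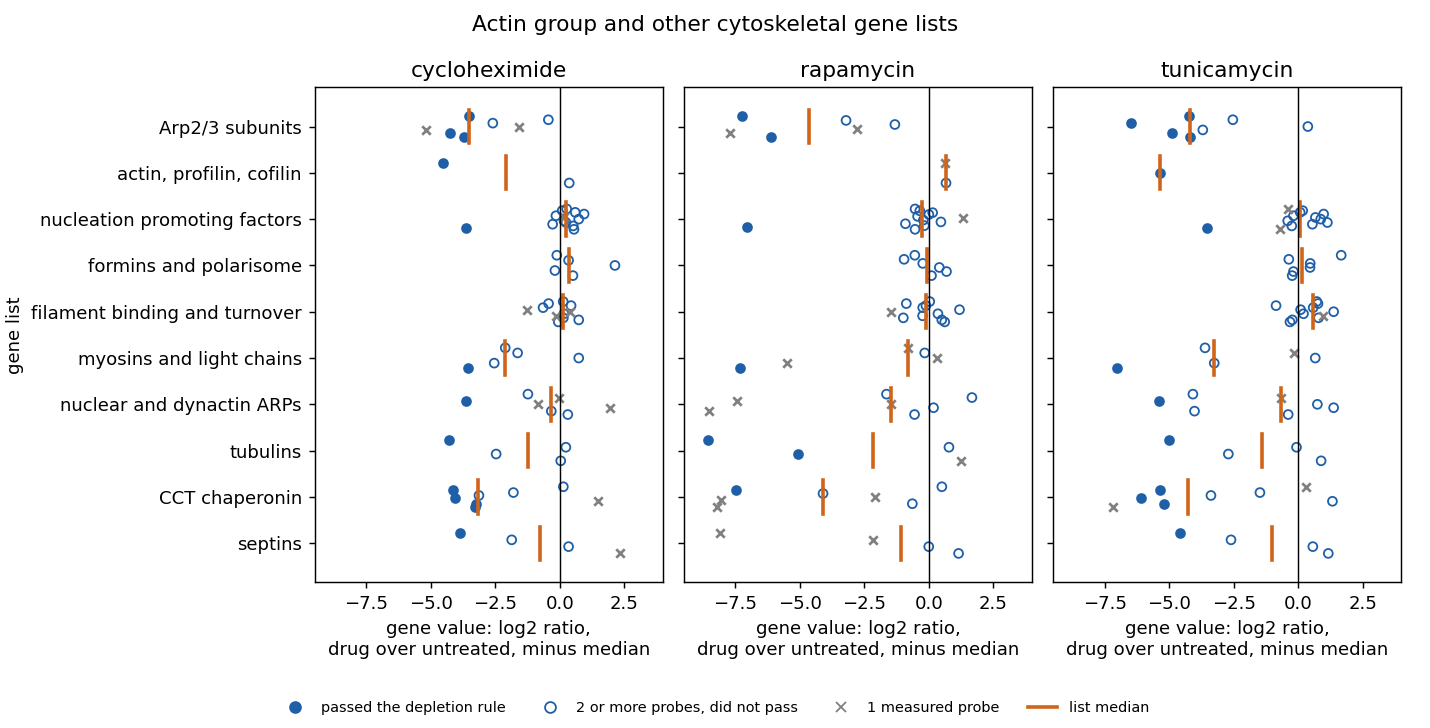
Gene values (log2 ratio of drug-selected over untreated DNA minus the array median) of the Arp2/3 subunits, of actin, profilin and cofilin, and of 8 other gene lists on the 3 arrays. Filled circles passed the depletion rule, open circles had at least 2 measured probes and did not pass, crosses had 1 measured probe, and bars are list medians, of which that of the Arp2/3 subunits lies near that of the CCT chaperonin.

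Genes next to the members on the chromosome were read as well, from the order of genes in the RefSeq table. COF1 was low between FRE6 at 0.63 ± 0.16 and LDB18 at -0.67 ± 1.98 under cycloheximide (n = 2 each). ARC19 stood under cycloheximide between URB1 at -3.96 ± 0.92 and PRP40 at -5.06 ± 1.80 (n = 2 each), both of which passed the depletion rule while ARC19 did not. MPS1, next to ARP2, passed on all 3 arrays, at -3.35 ± 0.88, -8.22 ± 0.32 and -5.39 ± 0.41 (n = 2 each). YPT1, next to ACT1, had 0.81 ± 1.29 under cycloheximide and passed under tunicamycin at -6.41 ± 0.07 (n = 2 each), an array on which ACT1 had no measured spot. Next to PFY1, GCY1 and LEO1 lay within 1 unit of the median on each array. TOR1, next to ARP3, had 0.14 (n = 10), -0.11 (n = 12) and -0.27 (n = 12) for cycloheximide, rapamycin and tunicamycin. VHC1, next to ARC40, had -0.42 (n = 1), 0.27 (n = 1) and 0.10 (n = 2). YRB2, next to ARC15, passed under cycloheximide at -4.52 ± 1.69 and under tunicamycin at -7.20 ± 1.15 (n = 2 each). Neighbours thus gave mixed values, and not all of them are printed.

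The mean profile of the 6 subunits with a value on every array was -3.11, -4.74 and -3.20 for cycloheximide, rapamycin and tunicamycin. Of 2539 other genes with at least 2 measured probes on each array, the 3 nearest to it by Euclidean distance over the 3 arrays were GCD2 (0.20), a subunit of the translation factor eIF2B, KOG1 (0.30), a subunit of TOR complex 1, and STU1 (0.33), a microtubule-binding protein of the spindle. The mean joins unlike subunits, such as ARC18 at -1.58, -1.32 and 0.37 and ARP2 at -3.70, -6.12 and -4.20. Some of its subunit values rest on 1 probe, while the other genes needed 2 on each array. With 3 arrays and with ARC35 in the mean, this describes a position only. No such search could be made for ACT1, which had a value on 1 array.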

How the data were processed

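Tag regions of genomic DNA were amplified with universal primers carrying Cy5 or Cy3 and read on 2-channel arrays, per the labels' protocols. The values the authors deposited are log2 ratios of 22575 spots on each array. The sources used here do not name the scanner, software, background correction or normalization. The values were not centred, with medians of -0.74 (cycloheximide), -1.32 (rapamycin) and -0.87 (tunicamycin), and each median was subtracted. Depth is not defined for arrays, and 1 array per drug limits the precision. Empty spots and the value 16.61 were left out. In the same order, 18680, 19558 and 19098 spots remained.

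Probes were named by the platform annotation (18794 with 1 gene, 0 with several, 3781 unnamed). Symbols and gene order came from the RefSeq table of assembly R64, to which 5321 of 5325 genes and all 10 members matched. Values were computed in Python 3.11.15 with pandas 2.3.3. The calling rule was run on simulated 2-probe genes with normal noise and shifts well beyond the threshold. That run shows that the rule finds such shifts, not how it performs on these arrays. The members and the gene lists were chosen with earlier results of these data known, and 1 planned list is not reported here. Beside the members, genes are named from the 3 (tubulins, chaperonin and septins 2) of each list with the largest absolute value on an array among those with at least 2 measured probes, not all of which are printed, as chromosomal neighbours, or by distance. TUB1 and TUB3 are named to complete the tubulins. Alternatives covered centring, normalization, the code, the probe summary, single probes, the spread unit, the threshold and the number of probes.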

Additional observations from a re-analysis of the deposited data

How the results depend on the processing

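The count of depleted members moved by at most 1 gene per array under the 8 alternatives run for it. Single probes cannot pass a rule of 2 probes and were not run for calls. The 4, 2 and 5 genes depleted under cycloheximide, rapamycin and tunicamycin were all called again without centring, with the centre on the non-essential list, after quantile normalization, with coded spots kept, with the median of probes, with the spread unit of the non-essential list and when 1 measured probe sufficed. At the stricter threshold of 4 and 3 units ARC40 under cycloheximide and COF1 under tunicamycin were lost. ARC19 under cycloheximide was gained without centring, after quantile normalization and with the unit of the non-essential list, and ARC15 under cycloheximide and ARP3 under rapamycin were gained when 1 probe sufficed. Under the 4 alternatives of centring, normalization and the code, 82 of 100 recomputed member values moved by less than the SD between probes (or 1 spread unit where 1 probe was measured) and 18 by more. The median of 2 probes equals their mean, and a single probe always lies within the SD of that mean, so neither is counted. With the code kept as a ratio, ACT1 would stand at 17.30 under cycloheximide and 17.42 under tunicamycin, ARC15 at 6.04 and ARC18 at 7.84 under cycloheximide. Without centring PFY1 stood at -0.37 under cycloheximide, ACT1 at -0.66 and PFY1 at -0.69 under rapamycin, and ARC18 at -0.50 under tunicamycin, so their side of 0 depends on the centring.

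The median of the Arp2/3 subunits under rapamycin was -5.99 without centring and -7.14 from lower-numbered probes alone, where the subunit median minus ACT1 was also -7.14. With ARC35 left out, a choice made after seeing the data, it was -6.12, or -6.78 minus ACT1 and -6.76 minus PFY1. Under tunicamycin the median was -5.51 from lower-numbered and -2.90 from higher-numbered probes, and minus COF1 it was -2.79 and 5.09. Depleted genes of the actin lists numbered 0 under cycloheximide at the stricter threshold, 5 under rapamycin when 1 probe sufficed and 5 under tunicamycin without centring. Over all genes, depleted counts were 341 under cycloheximide at the stricter threshold against 625, and under rapamycin 399 without centring and 599 when 1 probe sufficed against 259. Enriched counts over all genes were 2, 3 and 5. Under cycloheximide they were 0 without centring and at the stricter threshold, 12 with the code kept, 40 with the unit of the non-essential list and 5 when 1 probe sufficed. Under rapamycin they were 1 without centring and at the stricter threshold, 5 with the code kept and 9 when 1 probe sufficed, and under tunicamycin 9 with the code kept or the unit of the non-essential list and 14 when 1 probe sufficed. No paired analysis was possible because each drug has 1 array and no test was made.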
